A study of Solenopsis japonica with 2 samples.

Results

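Facilitated trehalose transporters, known as Tret1 in insects, were represented by 10 of the 4487 contigs that the authors deposited for cold-treated against control workers of the fire ant Solenopsis japonica. A contig is a transcript sequence assembled from the reads without a genome. The members were the contigs whose best match in the protein database NR or the nucleotide database NT is described as a trehalose transporter or as Tret1, whatever their values. The name was found in NR for 5 contigs and in NT for 9, and 4 contigs carried it in both. Adult wild type workers from laboratory colonies kept at 25 °C were incubated for 24 h in the cold, at 9 °C (T9), while control workers stayed at 25 °C for the same time (T25). Whole-body RNA of a pool of workers was sequenced in 1 library per temperature, so no spread between pools was measured and no test of the temperature was made. In whole-body RNA, fewer cells of a type and less RNA per cell cannot be told apart.

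Trehalose is the main blood sugar of most insects. It is made chiefly in the fat body, released into the blood and taken up by other tissues, where trehalase splits it into glucose. Tret1 proteins belong to the sugar porters of the major facilitator family, which span the plasma membrane and let sugar pass down its gradient. The first one was described in the sleeping chironomid, a midge that fills its cells with trehalose as it dries, and trehalose is also known as a protectant of insects in the cold. In insects with many Tret1-like genes, most carry the name by similarity only, and the sugar they move has not been measured.

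The table holds only contigs that the authors called different at a raw p under their threshold, and the smallest fold change in it was 2.35. Any trehalose transporter that changed less was not analysed here, so the direction of the members can be read only within that selection. Counts of the whole table summed to 7176142 in the T9 library and 11259918 in the T25 library, and 1 contig held 78.0% of the T25 sum. Counts were scaled by the library sizes carried by the authors' log2 values, 53237356 for T9 and 49264352 for T25. A T25 size without that contig was not tried. It would be smaller and would lower each ratio of T9 to T25 by the same factor. The interval in parentheses after a fold is an exact 95% interval (Clopper-Pearson) of the split of the counts between the libraries, and it covers counting error only.

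Of the 10 trehalose transporter contigs, 8 were higher and 2 were lower in the T9 library. Over all 4487 contigs of the table, 54.7% were higher in T9 and 45.3% lower, and among the 1507 contigs with at least 100 counts 64.2% were higher. At least 4-fold higher in T9 were 6 of the 10, against 36.9% of all contigs and 28.5% of those with at least 100 counts. At least 4-fold lower were 0 of the 10, against 30.8% of all contigs. That lower share was not computed for contigs with at least 100 counts, although the members had a median total count of 1161 against 47 in the table. The median log2 ratio of T9 to T25, with 1 added to each scaled count, was 2.46 over the members, with a range from -1.44 to 7.15. The same median was 1.45 over the whole table, 2.15 over its contigs higher in T9 and -2.18 over those lower. Since contigs near a ratio of 1 are missing, the median of a list depends strongly on how its members divide between the sides. The 8 members higher in T9 had a median of 2.60.

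**Figure D1:**
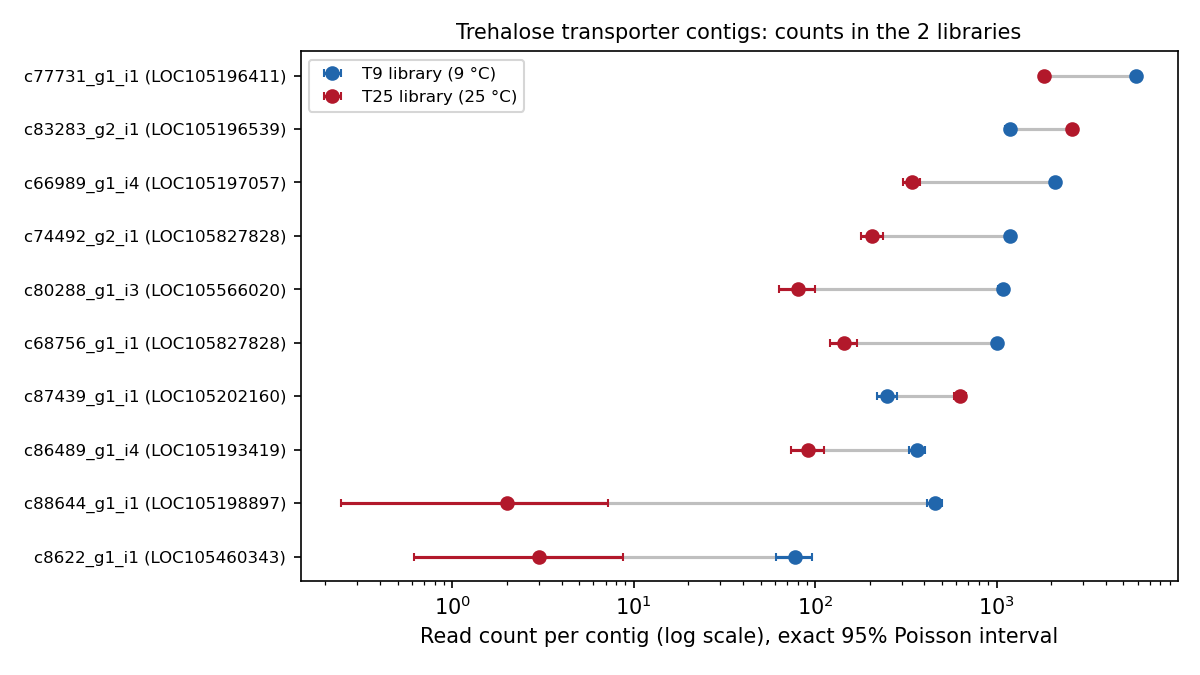
Read counts of the 10 trehalose transporter contigs in the T9 (blue) and T25 (red) libraries on a log axis, 1 row per contig in order of total count, with exact 95% Poisson intervals as bars and the locus of the best NT match in parentheses. The T9 point lies to the right in 8 rows and to the left in the rows of c83283_g2_i1 and c87439_g1_i1.

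The contig with the most counts was c77731_g1_i1, matched to a Tret1-like gene of the red imported fire ant Solenopsis invicta (LOC105196411). It had 5839 counts in the T9 library and 1819 in the T25 library. That is 2.97-fold (2.82 to 3.13) higher in T9, the smallest ratio of the 8 members on this side. The ratio becomes 1.08 with the median of all contigs of the table set to 0. It is 5.04 with the sum of the table as library size, of which 1 contig holds 78.0% in T25. Its best match among annotated proteins was Tret1 of the malaria mosquito Anopheles gambiae, a protein that carries trehalose from the fat body into the blood in that species. It was the only 1 of the 10 members whose match brought the gene ontology term for trehalose transport, together with terms for maltose, sucrose and lactose transport. In the T9 library it held 43.1% (42.2% to 43.9%) of all counts of the members, and in the T25 library 30.8% (29.6% to 32.0%).

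The member named Tret1 without the suffix "-like" was c66989_g1_i4 (LOC105197057 of S. invicta). It had 2097 counts in T9 and 341 in T25, a 5.69-fold (5.07 to 6.40) higher level in T9. Its share of the members' counts was 15.5% in the T9 library and 5.77% in the T25 library.

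Both contigs of a Tret1-like gene of the pharaoh ant Monomorium pharaonis (LOC105827828) were higher in T9. The contig c74492_g2_i1 had 1193 counts in T9 and 207 in T25, 5.33-fold (4.60 to 6.21) higher. The contig c68756_g1_i1 had 1011 counts in T9 and 144 in T25, 6.50-fold (5.45 to 7.79) higher. Their counting intervals overlap, and together they had 2204 counts in T9 and 351 in T25, 5.81-fold (5.19 to 6.52) higher. Matching the same gene of another ant, they may be pieces of 1 transcript or products of separate genes, which cannot be told apart here. This was the only locus with more than 1 contig, and the 10 contigs fell into 9 loci, of which 7 were higher and 2 lower in T9.

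A contig matched to Tret1-like genes of other ants, c80288_g1_i3 (LOC105566020 of Vollenhovia emeryi), had 1087 counts in T9 and 80 in T25. It was 12.6-fold (10.0 to 16.0) higher in T9, the largest ratio among members with more than 3 counts in each library. Its share of the members' counts was 8.02% in T9 and 1.35% in T25.

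The smallest ratio on the higher side after that of c77731_g1_i1 belonged to c86489_g1_i4, with 366 counts in T9 and 91 in T25. It was 3.72-fold (2.95 to 4.74) higher in T9. The name of this contig differs between databases: NR gives a Tret1-like protein of the little fire ant Wasmannia auropunctata, and NT gives a partial S. invicta mRNA of solute carrier family 2, member 8-like (LOC105193419), a glucose transporter name. It was the only member that NT did not name as a trehalose transporter.

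Almost all reads of 2 further members came from the T9 library. The S. invicta Tret1-like contig c88644_g1_i1 (LOC105198897) had 455 counts in T9 and 2 in T25, a 210.5-fold (57.9 to 1744) higher level. By ratio it stood in place 3 of all 4487 contigs and also in place 3 among those with at least 100 counts. The contig c8622_g1_i1 (LOC105460343 of W. auropunctata) had 77 counts in T9 and 3 in T25, a 23.8-fold (7.83 to 118) higher level. With so few reads in T25, both ratios are known only roughly: the exact Poisson interval of a count of 2 runs from 0.242 to 7.22 and that of a count of 3 from 0.619 to 8.77. The interval of c88644_g1_i1 nevertheless starts above the upper ends for c80288_g1_i3 and each of the members with a smaller ratio, while that of c8622_g1_i1 overlaps the interval of c80288_g1_i3.

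**Figure D2:**
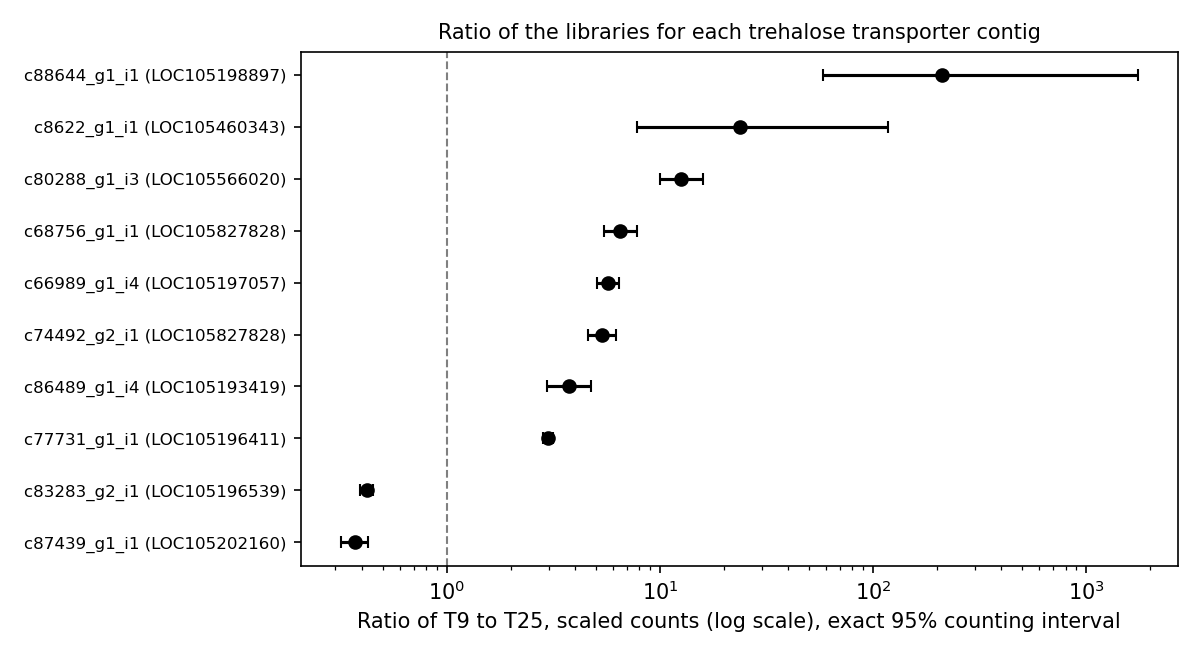
Ratio of T9 to T25 of scaled counts for each of the 10 contigs on a log axis, with exact 95% counting intervals as bars and a dashed line at a ratio of 1. Ratios run from 0.368 for c87439_g1_i1 to 210.5 for c88644_g1_i1, and the bars of c88644_g1_i1 and c8622_g1_i1 are wide because of their few T25 counts. No interval reaches the line, which follows largely from the authors' selection, as the table holds no fold below 2.35.

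Lower in the T9 library were 2 S. invicta Tret1-like loci. The contig c83283_g2_i1 (LOC105196539) had 1179 counts in T9 and 2590 in T25, 2.37-fold (2.22 to 2.55) lower in T9. Its fold lies close to the smallest fold of the table. The contig c87439_g1_i1 (LOC105202160) had 250 counts in T9 and 628 in T25, 2.71-fold (2.34 to 3.16) lower in T9. For both, NR gives an unnamed S. invicta protein, and the transporter name comes from NT and from the other databases. The protein match of c83283_g2_i1 was Tret1-2 of the fruit fly Drosophila melanogaster, a homolog of Tret1 in that species. By NR names alone the members would be 5 contigs, 5 of them higher in T9.

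Summed over the 10 contigs, 13554 counts were in the T9 library and 5905 in the T25 library, or 255 and 119.9 counts per 1000000 of the library size. The sum was 2.12-fold (2.06 to 2.19) higher in T9. Without c77731_g1_i1 it was 1.75-fold (1.68 to 1.82) higher, and without c83283_g2_i1 3.45-fold (3.32 to 3.59) higher. The direction of the sum is tied to the scaling. With the median of all contigs of the table set to 0, which lowers each log2 ratio by 1.46, the ratio of the sums becomes 0.774, below 1, while 8 contigs stay higher in T9. With the sum of the table as the library size the ratio is 3.60, and 1 contig makes up 78.0% of that T25 size. Neither of these scalings rests on genes known to be unchanged, because the table holds only contigs that the authors called different.

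Expression per length, given as the deposited FPKM (fragments scaled by contig length and sequencing depth), allowed the members to be ranked within a library. In the T25 library c83283_g2_i1 was first with 29.3 FPKM, followed by c77731_g1_i1 with 19.8 FPKM and c87439_g1_i1 with 6.12 FPKM. In the T9 library c77731_g1_i1 was first with 64.5 FPKM, followed by c66989_g1_i4 with 22.3 FPKM and c74492_g2_i1 with 21.4 FPKM. Thus the contigs in places 1 and 3 at 25 °C were those that stood in places 4 and 10 in the cold-treated library, c83283_g2_i1 with 13.5 FPKM and c87439_g1_i1 with 2.47 FPKM.

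Some neighbours in these orders had overlapping Poisson intervals, which by itself does not show that their levels are equal. In the T9 library these were c66989_g1_i4 and c74492_g2_i1, c83283_g2_i1 and c68756_g1_i1 (12.2 FPKM), c86489_g1_i4 (3.73 FPKM) and c8622_g1_i1 (2.91 FPKM), and c8622_g1_i1 and c87439_g1_i1. In the T25 library these were c74492_g2_i1 (3.67 FPKM) and c66989_g1_i4 (3.57 FPKM), c86489_g1_i4 (0.91 FPKM) and c80288_g1_i3 (0.78 FPKM), and c8622_g1_i1 (0.11 FPKM) and c88644_g1_i1 (0.02 FPKM). The place of c77731_g1_i1 above the next contig in T9 and that of c83283_g2_i1 above it in T25 were each beyond counting error. The members spanned 2.47 to 64.5 FPKM in T9 and 0.02 to 29.3 FPKM in T25.

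**Figure D3:**
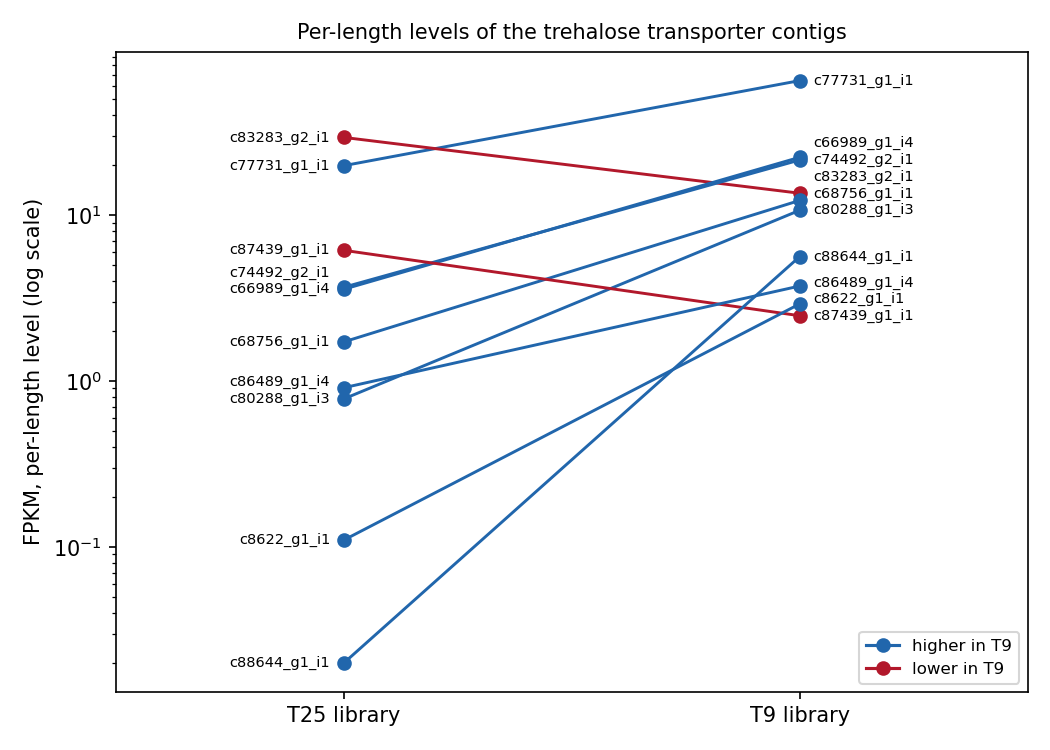
FPKM of the 10 contigs on a log axis in the T25 library (left) and the T9 library (right), with 1 line per contig, blue where the contig is higher in T9 and red where it is lower. The red line of c83283_g2_i1 falls from 29.3 to 13.5 FPKM and crosses the blue line of c77731_g1_i1, which climbs from 19.8 to 64.5 FPKM, and c88644_g1_i1 climbs from the lowest place.

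The makeup of the members' reads differed accordingly between the libraries. Every member passed the authors' selection and members lay on both sides, so some shift of their shares was bound to appear. Trehalose transporters that changed less are missing from the sum, so the values are not shares of all transporter reads. The contig c83283_g2_i1 held 43.9% (42.6% to 45.1%) of the members' counts in T25 and 8.70% (8.23% to 9.19%) in T9. For c87439_g1_i1 the shares were 10.6% in T25 and 1.84% in T9. The contig c88644_g1_i1 held 0.0339% in T25 (0.0041% to 0.122%) and 3.36% in T9 (3.06% to 3.67%). These shares need no scaling between the libraries, and their exact binomial intervals cover counting error only.

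Annotation that the choice of members did not use placed most of them in the same protein family. The sugar transporter domain PF00083 was found in 8 of the 10 contigs, and the same 8 had a Tret1 protein of another insect as best UniProt match. They also shared the gene ontology terms for glucose import, glucose transmembrane transporter activity and carbohydrate:proton symporter activity, assigned by descent from other species. The contigs without a domain or a protein match were c74492_g2_i1 and c8622_g1_i1. Judged by counts per FPKM, a measure proportional to effective length, these were also the shortest members, at 0.546 and 0.260 of the length of the longest, c80288_g1_i3. The other 7 ranged upward from 0.796, the value of c88644_g1_i1.

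Grouped by the A. gambiae gene behind their ontology terms, members of a group did not always lie on the same side. AGAP003492 was the match of c66989_g1_i4 and c86489_g1_i4, higher in T9, and of c87439_g1_i1, lower in T9. AGAP007483 was the match of c88644_g1_i1 and c80288_g1_i3, both over 10-fold higher in T9, and their summed counts of 1542 and 82 gave a 17.4-fold (13.9 to 22.0) higher level. The remaining matches had 1 member each.

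Domain PF00083 occurred in 13 contigs of the table, 11 higher and 2 lower in T9, against 54.7% higher and 45.3% lower over all contigs. The 2 lower ones were the trehalose transporters c83283_g2_i1 and c87439_g1_i1. The 5 contigs with the domain that are no members were all higher in T9. Closest to the members by name was the facilitated glucose transporter c13185_g1_i1 (solute carrier family 2 member 8 of S. invicta), which takes up hexoses in other animals and whose UniProt match was also mosquito Tret1. It had 6490 counts in T9 and 1690 in T25, a 3.55-fold (3.37 to 3.75) higher level, with 41.6 FPKM in T9 and 10.7 FPKM in T25. Within T9 only c77731_g1_i1 of the members had a higher FPKM. The other 4 were c63559_g1_i3 and c63358_g1_i1, named synaptic vesicle glycoproteins, and c89733_g2_i2 and c68682_g1_i1, named organic cation transporters.

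**Figure D4:**
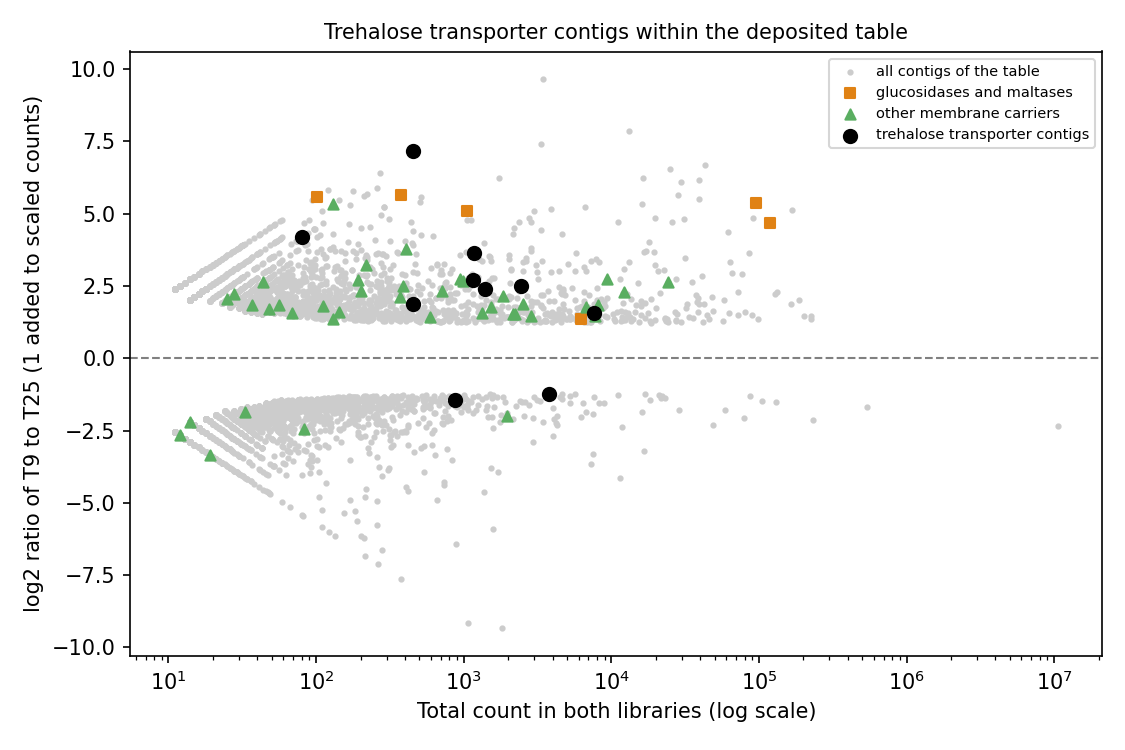
Log2 ratio of T9 to T25 against total count (log axis) for all 4487 contigs (grey), the 10 trehalose transporter contigs (black), the glucosidases and maltases (orange squares) and the other membrane carriers (green triangles). The empty band around 0 is the authors' selection, and 8 black points lie above it and 2 just below it.

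Genes that make, split or regulate trehalose were scarce in the table. The words for trehalase, trehalose phosphate synthase, glycogen enzymes and phosphoglucomutase brought 3 contigs, all lower in T9, and none was an enzyme of trehalose itself. They were a pair of contigs of glycogenin-1, the protein that primes glycogen, and a contig of the kinase GSK-3 beta, which those words catch by its name. The glycogenin-1 contigs had 15 and 4 counts in T9 against 54 and 36 in T25, c62247_g1_i1 being 3.89-fold (2.16 to 7.42) and c83090_g1_i1 9.73-fold (3.49 to 37.6) lower. A hypertrehalosaemic prohormone-like contig (c63269_g1_i1), whose peptide raises blood trehalose in cockroaches, had 6 counts in T9 and 54 in T25 and was 9.73-fold (4.19 to 27.7) lower.

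The list of glycolysis and polyol enzymes had 7 contigs, 3 higher and 4 lower in T9, and some were caught only by part of a name, such as diacylglycerol kinases. Glycerol kinase (c82862_g1_i2), which phosphorylates glycerol, had 8833 counts in T9 and 3237 in T25, 2.53-fold (2.43 to 2.63) higher. Ketohexokinase-like (c81868_g1_i1), an enzyme of fructose use, had 618 and 207 counts, 2.76-fold (2.36 to 3.25) higher. ATP-dependent 6-phosphofructokinase (c84462_g1_i1), an enzyme of glycolysis, had 17 and 50 counts, 3.18-fold (1.80 to 5.88) lower. Glyceraldehyde-3-phosphate dehydrogenase-like (c69765_g1_i2), also of glycolysis, went the other way, with 22 and 4 counts, 5.09-fold (1.73 to 20.3) higher. The list of glucosidases and maltases was higher in T9 in 6 of 6 contigs. Some of these act as digestive enzymes that release glucose from sucrose and maltose, but the name also caught neutral alpha-glucosidase AB (c82309_g1_i1), which trims sugar chains of proteins, and an uncharacterized family 31 glucosidase (c35068_g1_i1). The counts of the list summed to 214168 in T9 and 7906 in T25, a 25.1-fold (24.5 to 25.6) higher level. Of these counts c35068_g1_i1 had 114034 and 4135. The alpha-glucosidase-like contig c80199_g1_i1 had 94084 and 2103, 41.4-fold (39.6 to 43.2) higher in T9. The other membrane carriers, among them c13185_g1_i1, were higher in 34 and lower in 6 of 40 contigs, with a median log2 ratio of 1.83.

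Marker lists of tissues were also compared between the libraries. Midgut proteases and peritrophins, with a pair of protease inhibitors caught by the same words, were higher in T9 in 20 of 27 contigs and their counts summed to 242806 in T9 and 9860 in T25. Fat body proteins were higher in 4 of 6 contigs, a share near the 64.2% of all contigs with at least 100 counts, with 218993 counts in T9 and 73210 in T25. Apolipophorins (c84287_g2_i1) held 150479 and 50431 of these counts, and a contig matched to vitellogenin (c89203_g1_i4) held 68075 and 22099. The remaining fat body contigs higher in T9 also matched vitellogenins. The storage proteins arylphorin (c72825_g1_i1), with 18 and 386 counts, and hexamerin (c78787_g1_i1), with 24 and 200, were lower in T9. Muscle proteins were lower in 14 of 17 contigs, with 48797 counts in T9 and 95549 in T25, and antennal and eye proteins were lower in 48 of 50, with 3526 and 24649 counts. No marker list was at 0 in either library, as the table holds no count of 0. The part of these tissue differences in the transporter ratios was not tested.

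The described contigs closest in log2 ratio to c77731_g1_i1, sought among the 137 with a similar total count, were an unnamed S. invicta protein (c85861_g1_i1), collagen alpha-1(IV) chain-like (c82158_g1_i1), a basement membrane protein, and esterase E4-like (c90604_g2_i6). They differed from it by 0.011, 0.016 and 0.017 on the log2 scale. Over only 2 libraries many contigs share such a value.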

How the data were processed

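Whole-body RNA of workers was sequenced in 2 libraries. Per the labels and the study's methods, reads were trimmed with Trimmomatic 0.38, checked with FastQC 0.11.7, pooled for assembly with Trinity, clustered with CD-HIT and aligned with Bowtie 1.1.2, and the deposited counts were estimated per contig with RSEM and hold whole numbers without normalization. The authors left out contigs with a count of 0. The deposited FPKM relate fragments to contig length and depth. The deposited log2 values, log2(CPM + 1), were used only for the library size they carry. The authors' fold change score, p-values and mean log2 level of their own comparison were not used.

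Counts were scaled by library size, ratios were given exact intervals, and log2 ratios had 1 added to counts scaled to the mean library size (Python 3.11.15, numpy 2.4.6, pandas 2.3.3, scipy 1.17.1, matplotlib 3.10.9). The intervals were tested on simulated data. Reads are not independent molecules, so intervals cover counting error only. Every member is named. Of the 10 other lists at most 3 contigs each were to be named, by total count. Other contigs with domain PF00083, phosphofructokinase, glyceraldehyde-3-phosphate dehydrogenase and hexamerin were named after their values were seen. Members and lists were chosen with earlier results of these data known. Alternatives changed the library size, centring, pseudocount, count minimum, database and unit. No sequence of the contigs was used here.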

Additional observations from a re-analysis of the deposited data

How the results depend on the processing

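The count of 8 trehalose transporter contigs higher in T9 was the same under each of the 3 other scalings and with a minimum of 10 counts in total; it was 7 with a minimum of 100 counts, with NT names only and by loci, and 5 with NR names only. The ratio of the summed counts, 2.12, became 2.32 with clean read pairs as library size, 3.60 with the sum of the table, 3.90 with NR names only, and 0.774, on the other side of 1, with the median of all contigs set to 0. The median log2 ratio of 2.46 became 3.22 with the sum of the table and 1.00 with the median of all contigs set to 0. The scalings by clean read pairs, table sum and median shift each log2 ratio by 0.13, 0.76 and -1.46. In the scaling by the table sum, 1 contig makes up 78.0% of the T25 size. The 10 contigs and 9 loci each kept their direction under every scaling and pseudocount tried, and the 10 contigs also with FPKM ratios. Several of these settings could not change the count of 8. A pseudocount cannot reverse a ratio, and the lowest total of a member was 80, above the minimum of 10. The scalings by read pairs and by the table sum raise each ratio, so only the centring on the median could have turned a higher contig. With NR names only, contigs higher in T9 fell to 18 for the other membrane carriers, 13 for midgut, 1 for fat body and 1 for antenna and eye, since fewer contigs carry the name. No paired analysis was possible because each temperature has 1 library. For the same reason no replicate could be left out. Counts limit the ratios of c88644_g1_i1 and c8622_g1_i1, with 2 and 3 reads in T25.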

Other observations

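Among the other membrane carriers, 4 contigs matched the same putative inorganic phosphate cotransporter of S. invicta (LOC105196548), a gene of the major facilitator family like Tret1, and all 4 were at least 4-fold higher in T9. Their counts summed to 1220 in T9 and 162 in T25, a 6.97-fold (5.91 to 8.26) higher level. This locus was picked after its values were seen. The 6 carriers lower in T9 included, as an example also picked by its values, the sodium-coupled monocarboxylate transporter c86653_g1_i1, with 423 counts in T9 and 1547 in T25.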
